A study of Mus musculus with 38 samples.

Results

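Base-unpairing regions (BURs) at which SATB1 was found in every tissue examined were taken as the BURs on chromosomes 1 to 19 and X that shared at least 1 bp with a peak in each of 6 urea ChIP-seq lists of SATB1. There were 6646 such regions among 232068 BURs on those chromosomes, 2.86% of them, and the whole reference map held 238380. The 6 lists were 2 replicates each from thymocytes, brain and skin of wild-type C57BL/6 mice. All were immunoprecipitated with the home made 1583D antibody from chromatin that had been crosslinked with formaldehyde and purified by ultracentrifugation through 8 M urea. The brain material was cortex, in which only the neurons express SATB1 according to the sample descriptions, and the skin material was epidermal keratinocytes according to the study's methods. The age field gives 5 and 6 weeks for brain 1 and 2 and postnatal day 13 for thymocytes and skin, whereas the extraction text gives day 13 for brain and day 5 for skin. The titles of standard SATB1 replicate 1 and of the thymocyte CTCF list, both described further on, say 6 weeks, and the study's methods give yet other ages for skin and cortex. These sources were not reconciled here. The replicate libraries of a tissue share an experiment number in their titles and differ in the amount of antibody (4 and 2 µl for thymocytes 1 and 2), in cycles (10 and 12 for brain 1 and 2) or in a number of seconds (55 and 60 for skin 1 and 2), so the spread between them may be technical. Peak lists carry no expression values, and the identity of the tissues could therefore not be checked against marker genes. Lists that did not choose the regions were 2 of SATB1 by standard ChIP-seq in thymocytes, made with 2 different antibodies (ab109122 in replicate 1 and 1583D in replicate 2), and 1 each of CTCF by urea ChIP-seq in thymocytes and skin. The BUR reference map itself is 1 list without a replicate, made by letting recombinant SATB1 bind sonicated thymocyte DNA in vitro.

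BURs are stretches of genomic DNA whose strands separate readily under negative superhelical stress. They are rich in A and T and contain segments in which one strand lacks G, the so-called ATC context. SATB1 is a nuclear protein of thymocytes, cortical neurons and epidermal cells that binds BURs through the minor groove and organises chromatin. CTCF binds a longer and defined motif and also shapes chromatin loops. It serves here as an unrelated DNA-binding protein measured by the same urea method. The titles of the CTCF libraries carry other experiment numbers than those of the SATB1 libraries of the same tissue.

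The sequences of 3 regions are shown as the strongest cases and not as typical ones. They are the first 3 by mean percentile of fold enrichment over the 6 lists, among those with no standard SATB1 and no CTCF peak. The fourth sequence is a BUR of chromosome 9 at which none of the 6 lists had a peak, shown because its enrichment in vitro was the nearest to that of the first region. Each is the 300 bp around the summit of the BUR on the plus strand of NCBI37/mm9, and capitals mark every match to one of 10 short sequences of 7 bp (7-mers) described further on.
Region 1, chr9:79230158-79230457, intergenic: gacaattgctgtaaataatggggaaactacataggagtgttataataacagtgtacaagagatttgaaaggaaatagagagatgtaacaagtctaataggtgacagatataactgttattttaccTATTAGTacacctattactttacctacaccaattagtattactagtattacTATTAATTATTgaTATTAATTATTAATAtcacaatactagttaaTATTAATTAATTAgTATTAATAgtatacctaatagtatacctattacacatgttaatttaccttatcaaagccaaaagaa
Region 2, chr17:72985075-72985374, intergenic: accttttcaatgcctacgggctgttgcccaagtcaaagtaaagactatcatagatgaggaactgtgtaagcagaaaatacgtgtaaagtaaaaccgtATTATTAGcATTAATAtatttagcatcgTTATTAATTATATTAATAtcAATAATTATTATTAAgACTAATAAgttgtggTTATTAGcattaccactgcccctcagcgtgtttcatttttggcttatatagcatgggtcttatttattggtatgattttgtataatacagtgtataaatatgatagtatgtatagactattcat
Region 3, chrX:131111129-131111428, intron of Btk: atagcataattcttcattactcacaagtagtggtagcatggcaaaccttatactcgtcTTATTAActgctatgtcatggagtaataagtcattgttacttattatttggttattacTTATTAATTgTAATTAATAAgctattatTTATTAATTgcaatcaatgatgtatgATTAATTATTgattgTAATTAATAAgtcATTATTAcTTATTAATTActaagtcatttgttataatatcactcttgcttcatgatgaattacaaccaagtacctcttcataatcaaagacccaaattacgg
Unbound BUR, chr9:54310817-54311116, intron of Dmxl2: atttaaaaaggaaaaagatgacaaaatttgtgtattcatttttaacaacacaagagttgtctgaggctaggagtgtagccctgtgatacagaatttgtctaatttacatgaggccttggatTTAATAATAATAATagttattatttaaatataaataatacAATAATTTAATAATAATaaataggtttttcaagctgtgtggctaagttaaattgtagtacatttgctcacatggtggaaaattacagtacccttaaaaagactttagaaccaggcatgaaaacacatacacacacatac
Most capitals lie near the middle in each of the 3 bound regions, and those of the unbound BUR lie there as well. The mean number of different 7-mers over all 6646 regions was 5.09. Region 1 held 24 matches to 8 different 7-mers, region 2 held 20 matches to 9 and region 3 held 24 matches to 7. The unbound BUR held 8 matches to 3 different 7-mers, although it was as strongly bound in vitro as region 1 (fold enrichment 13.5 in both). AT content was also alike, with 74.7%, 70.0% and 73.7% in the 3 regions and 71.3% in the unbound BUR.

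The 6646 regions were chosen by peak presence in the 6 urea lists and in the BUR map, so their enrichment in those lists is given as a description and was not tested. The share of all BURs with a peak was 14.6% and 12.9% in thymocytes 1 and 2, 37.2% and 34.2% in brain 1 and 2, and 3.71% and 3.64% in skin 1 and 2. Membership was therefore set mainly by the 2 skin lists, the smallest of the 6. The study describes the aligned reads of its urea libraries as similar in total across cell types; read totals are not in the lists, so the share of the difference that depth accounts for was not tested. The nesting given next also depends on list size, and with every urea list cut to the 10846 peaks of the smallest, 3414 BURs were in all 6. Of the 7236 BURs with a peak in both skin lists, 91.8% were also in all thymocyte and brain lists, compared with 25.3% of the 26260 BURs in both thymocyte lists and 9.13% of the 72789 in both brain lists. Only 325 BURs of both skin lists (4.49%) lacked a peak in both thymocyte lists, and 374 (5.17%) lacked one in both brain lists.

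Presence in a list that was left out of the choice was near complete for thymocytes and brain. Of 6688 BURs with a peak in the other 5 lists, 99.4% had one in thymocytes 1, and the corresponding shares were 99.7% for thymocytes 2, 99.7% for brain 1 and 99.2% for brain 2. These stand beside the shares of all BURs given above, of which the highest was 37.2%. For skin the shares were 87.0% of 7642 in skin 1 and 84.5% of 7861 in skin 2. In every case the other replicate of the same tissue was among the 5 lists that chose. These shares therefore describe agreement between replicates and are no independent check. When only replicate 1 of each tissue was used, 7980 BURs (3.44% of all) were chosen, and 83.3% of these were in all 3 lists of replicate 2. The reverse choice on replicate 2 gave 7754 BURs (3.34% of all), of which 85.7% were in all 3 lists of replicate 1. Just outside the rule lay 2354 BURs with a peak in exactly 5 lists, and 2211 of them lacked only a skin list (996 lacked skin 1 and 1215 lacked skin 2).

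In every one of the 6 lists the commonly bound regions had higher peaks than other BURs of the same list. Fold enrichment is the height of a peak over its local background in its own sample, with no scaling from one sample to another. The median was 18.1 in thymocytes 1 and 18.8 in thymocytes 2, against 7.37 and 7.28 at the other BURs with a peak there. In brain 1 and brain 2 it was 17.2 and 16.9, against 7.86 and 7.95. In skin 1 and skin 2 it was 10.2 and 9.62, against 5.66 and 5.53. The interquartile ranges of the regions and of the other BURs did not overlap in thymocytes or brain, whereas in skin they overlapped slightly (the regions' lower quartile was 6.92 in skin 1 and 6.55 in skin 2, and the upper quartile of the others was 7.13 and 7.14). Expressed as a percentile among all peaks of a list, the median region stood at 91.1 and 90.1 in thymocytes, 92.7 and 92.2 in brain, and 62.5 and 61.4 in skin. BURs in exactly 5 lists, just outside the rule, had medians of 12.5 and 12.2 in thymocytes, 14.0 and 13.8 in brain, and 5.45 and 5.32 in the skin list they had. The weakest peak of any of the 6646 regions had a fold enrichment of 2.02, so a place in all 6 lists did not require a high peak in each.

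**Figure D1:**
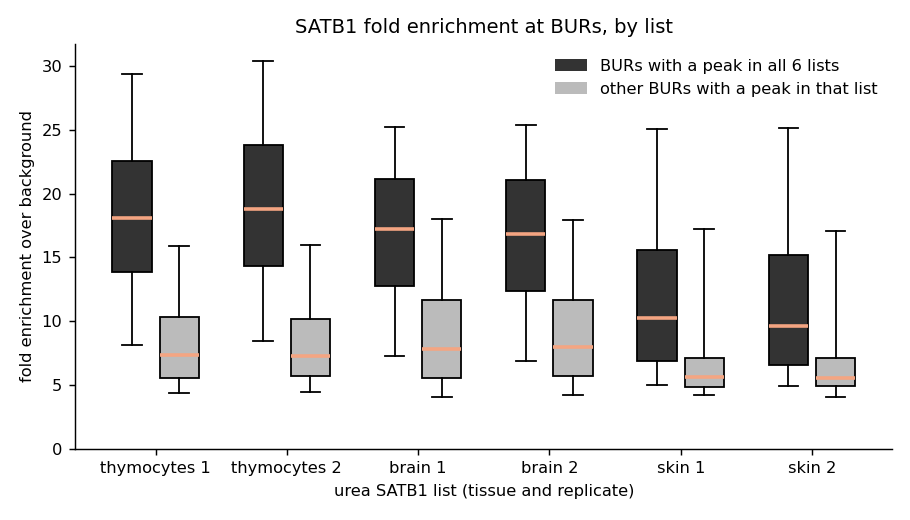
Fold enrichment over local background (vertical axis) in each of the 6 urea SATB1 lists, for the 6646 BURs with a peak in all 6 lists (dark) and for the other BURs with a peak in that list (grey). Boxes span the quartiles with the median as a line and whiskers reach the 5th and 95th percentiles; the dark medians of 16.9 to 18.8 in thymocytes and brain are above the grey ones of 7.28 to 7.95, and those in skin are 9.62 and 10.2 against 5.53 and 5.66.

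The share of commonly bound regions climbed steeply with signal in a tissue. Among BURs in both thymocyte lists, 95.3% of the decile with the highest mean percentile were commonly bound, against 65.4% of the next decile and 0.990% of the lowest. Among BURs in both brain lists, the same shares were 42.7%, 17.1% and 0.811%. A decile held 2626 BURs in thymocytes and 7279 in brain, more than the 6646 regions, so the shares cannot be compared between the tissues, whose peaks also took part in the choice.

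Enrichment in vitro, which the rule did not use among BURs, ran in the same order. The median fold enrichment of recombinant SATB1 was 10.2 at the 6646 regions (quartiles 7.34 and 13.8). It was 8.14 at 16782 BURs in both thymocyte and both brain lists but no skin list, 6.40 at 37368 BURs in both brain lists alone, 5.29 at 137925 BURs in none of the 6 lists, and 5.88 over all BURs. The quartiles of the regions and of unbound BURs overlapped (7.34 to 13.8 and 3.98 to 8.08). Commonly bound regions made up 0.349% of the decile of BURs with the weakest binding in vitro and 9.88% of the decile with the strongest, so that even in this top decile the great majority lay outside. The difference in medians from unbound BURs was 4.93, and it was 2.31 among BURs of 400 to 500 bp. Commonly bound regions were also longer (median 514 bp against 416 bp).

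**Figure D2:**
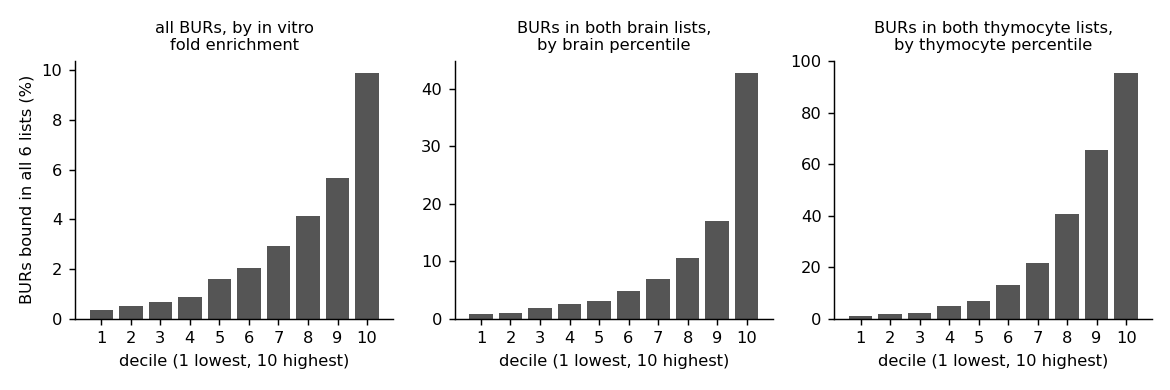
Share of BURs that were bound in all 6 urea SATB1 lists (vertical axis, percent, separate scales) in deciles of all BURs by in vitro fold enrichment (left), of BURs in both brain lists by brain percentile (middle) and of BURs in both thymocyte lists by thymocyte percentile (right). Deciles run from 1, the lowest, to 10, the highest; the last bars are 9.88%, 42.7% and 95.3%, and brain and thymocyte peaks themselves took part in choosing the regions.

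Within the 6646 regions, the ranking differed most between brain and skin. Spearman's rho across regions is given as a description without a p, since all lists of a tissue share their source. Replicates ranked the regions alike, with rho of 0.83 in thymocytes, 0.93 in brain and 0.91 in skin. Between tissues, rho was 0.34 to 0.37 for brain with skin. For thymocytes 1 it was 0.71 and 0.76 with brain 1 and 2, and 0.60 and 0.57 with skin 1 and 2. For thymocytes 2 it was 0.66 and 0.63 with brain 1 and 2, and 0.68 with both skin lists. Thymocytes 1 was thus closer to brain and thymocytes 2 slightly closer to skin. Against the in vitro map, rho was 0.62 and 0.57 in brain 1 and 2, 0.36 and 0.40 in thymocytes 1 and 2, and 0.22 and 0.23 in skin 1 and 2. The correlation with the in vitro map was thus highest in brain and lowest in skin. The regions were chosen by these same lists, and the median region ranked lower among skin peaks than among brain peaks. What this did to rho was not tested. The quartile of regions strongest in brain had a median in vitro enrichment of 14.4, against 6.92 in the weakest quartile. For thymocytes the same medians were 13.0 and 8.13, and for skin they were 12.2 and 9.24.

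The SATB1 peaks were centred on the BURs. The rule required each peak to overlap the BUR, which itself limits these distances, and those at other bound BURs are not given here. The summit of the in vivo peak lay a median of 21 to 22 bp from the summit of the in vitro peak in thymocytes and brain, and 26 and 27 bp from it in skin 1 and 2. It fell within 50 bp in 80.2% to 81.5% of regions in thymocytes and brain and in 73.9% and 73.4% in skin 1 and 2. Only 17 of the 6646 regions shared a SATB1 peak of any list with another of them. Peaks shared with BURs outside the 6646 were not counted.

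**Figure D3:**
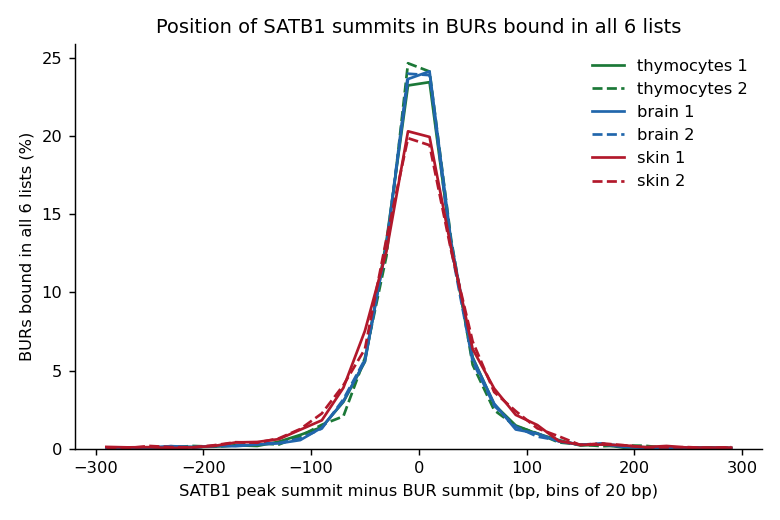
Distance of the SATB1 peak summit from the BUR summit (horizontal axis, bp, bins of 20 bp) against the share of the 6646 commonly bound BURs (vertical axis, percent), with a line for each of the 6 urea lists. All lines are highest in the bins next to 0 bp, and the skin lines are lower at the centre than those of thymocytes and brain.

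The most marked feature that the rule did not use was the sequence around the summit. All 8192 distinct 7-mers, each counted together with its reverse complement, were ranked on the odd-numbered chromosomes by the share of 300-bp windows with a match, in commonly bound regions minus unbound BURs. The 10 highest 7-mers all held TAAT or its complement ATTA. They overlap each other by shifts of a few bases. On the even-numbered chromosomes and X, which played no part in that ranking, the same 10 were again the 10 highest. ATTAATA was found there in 61.3% of commonly bound windows, 56.0% of those bound in thymocytes and brain without skin and 23.5% of unbound ones. In the same order the shares were 59.2%, 48.3% and 22.2% for AATTAAT, 62.8%, 57.4% and 30.7% for ATTATTA, and 33.4%, 31.0% and 9.43% for ACTAATA. They were 53.7%, 48.0% and 31.5% for AATAATT, and 43.4%, 37.6% and 22.8% for ATAATTA. For several 7-mers, the set without skin was thus close to the commonly bound regions. Over all BURs of these chromosomes, the 6 were present in 33.0%, 30.6%, 38.4%, 15.0%, 37.6% and 27.9%. For the remaining 4, BURs of brain alone are also given. TTAATAA was present in 67.1% of commonly bound windows, 60.6% of those bound in thymocytes and brain without skin, 48.5% of those bound in brain alone, 26.1% of unbound BURs and 37.0% of all BURs. CTAATAA was present in 43.3%, 39.2%, 23.2%, 10.7% and 17.9% of the same sets.
ACTTAAT differed in its pattern. It was found in 31.2% of commonly bound windows, but in 14.7% of those bound in thymocytes and brain without skin and in 15.3% of those bound in brain alone, against 7.59% of unbound BURs and 11.0% of all BURs. TAATTAA was intermediate, with 56.2%, 40.4%, 33.9%, 20.3% and 27.0%. For these 2 7-mers and AATTAAT, the gap between commonly bound regions and BURs that lacked skin was thus wider than for TTAATAA. None of these shares was tested.

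The mean number of TAAT-type 7-mers was higher with every additional list. The number of lists largely stands for tissues. Of 38751 BURs with 2 lists, 37368 were those of brain alone. Of 17023 with 4 lists, 16782 were those of thymocytes and brain without skin. On the even-numbered chromosomes and X, the mean number of the 10 that a window held was 2.05 in BURs of no list, 3.15 with 1 list, 3.49 with 2, 3.96 with 3, 4.34 with 4, 4.71 with 5 and 5.12 with all 6. A window had 3 or more of them in 36.3% of BURs of no list and in 89.5% of those in all 6. Counted over all chromosomes, TAAT or ATTA occurred a median of 13 times in a commonly bound window (quartiles 11 and 16), 12 times in BURs of thymocytes and brain without skin, 11 times in BURs of brain alone and 8 times in unbound BURs (quartiles 4 and 10). The matches were concentrated at the summit. In the 50 bp on either side of it, 85.0 and 78.6 of every 1000 positions in commonly bound regions began a match, against 18.8 and 18.1 in unbound BURs. Between 100 and 150 bp from the summit, the values were 9.94 and 9.82 against 6.41 and 6.66.

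**Figure D4:**
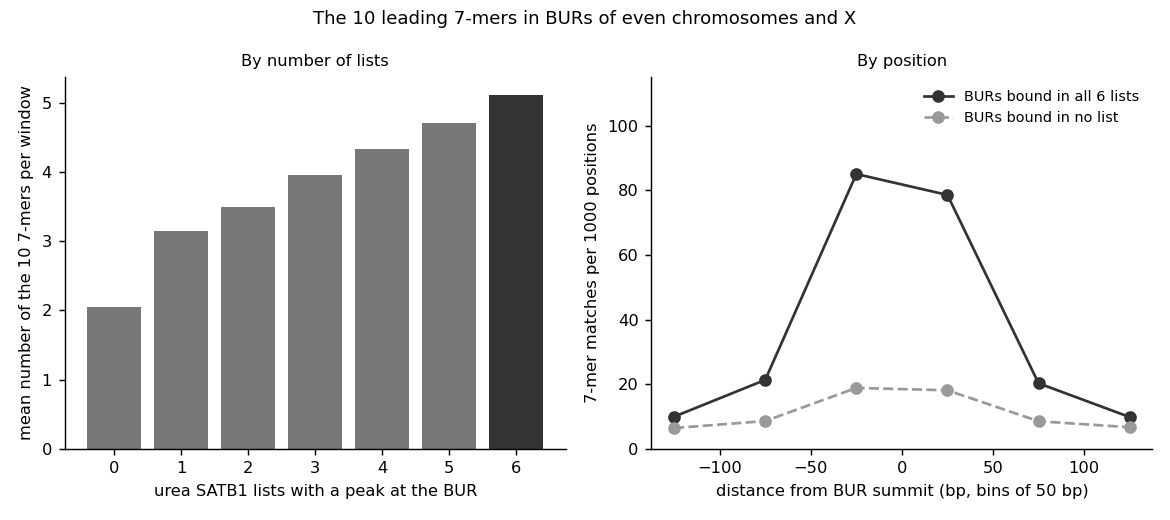
Left, mean number of the 10 leading 7-mers in the 300 bp around the BUR summit (vertical axis) by the number of urea SATB1 lists with a peak (horizontal axis), from 2.05 with no list to 5.12 with 6. Right, matches to these 7-mers per 1000 positions (vertical axis) by distance from the BUR summit (horizontal axis, bins of 50 bp) in commonly bound BURs (solid line) and BURs bound in no list (dashed line), with 85.0 and 18.8 in the bin just before the summit.

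This difference was present at every AT content and every strength in vitro examined. In windows of 60 to 65% AT, 52.2% of commonly bound and 11.5% of unbound BURs held TTAATAA, and in windows of 75 to 80% AT the shares were 77.9% and 32.7%. Among BURs without a simple repeat and with an in vitro fold enrichment of 3 to 5, the shares were 61.6% of 245 commonly bound and 30.7% of 27362 unbound BURs. At a fold enrichment of 12 to 20 they were 73.3% of 1025 and 41.0% of 1233. Within the commonly bound regions, the number of different 7-mers was only weakly related to fold enrichment in any list (Spearman's rho 0.10 to 0.17 across 3522 regions of the even chromosomes and X).

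AT content was slightly lower at the regions than in the other sets. Its median was 70.7% in commonly bound windows (quartiles 66.3 and 74.0), 71.7% in BURs of thymocytes and brain without skin, 72.7% in BURs of brain alone (lower quartile 70.0) and 71.3% in unbound BURs (quartiles 67.3 and 74.3). The difference of -0.67 percentage points from unbound BURs was small beside the spread within either set. It was -2.58 over whole BURs, -2.33 among BURs of 400 to 500 bp, -1.67 without simple repeats and 0 when each urea list was cut to an equal number of peaks. A stretch of at least 25 bp without C or without G was found in 94.1% of commonly bound windows and in 97.1% of unbound ones. Stretches of at least 50 bp were less frequent, in 19.3% of commonly bound windows and 40.6% of unbound ones. They were in 14.0% of windows of thymocytes and brain without skin and 13.8% of those of brain alone. Simple repeats, described next, were also most frequent in unbound windows, and their part in these shares was not tested. AATATATTT is known as the core unwinding sequence of the BUR beside the immunoglobulin heavy chain enhancer. It was infrequent in every set and lowest in commonly bound windows, at 5.03%. The share was 5.85% in BURs of thymocytes and brain without skin, 7.11% in those of brain alone, 6.55% in unbound and 6.55% in all BURs.

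Unbound BURs were the more repetitive ones. A perfect tandem repeat of units of up to 6 bp and at least 24 bp long was found in 9.03% of commonly bound windows, 3.92% of those of thymocytes and brain without skin, 3.80% of those of brain alone, 31.8% of unbound ones and 21.1% of all. ATCTATC, a 7-mer of such repeats, was present in 4.83% of commonly bound and 18.1% of unbound windows on the even-numbered chromosomes and X (13.4% of all). The widest deficit was that of another 7-mer, AAATAAA. It was present there in 38.8% of commonly bound windows, 42.6% of those of thymocytes and brain without skin and 49.4% of those of brain alone. In unbound windows its share was 55.6% (52.1% of all). A 20-mer that was not itself a simple repeat was shared with at least 10 other BURs in 18.4% of commonly bound windows, 12.2% and 11.4% of the sets without skin, and 37.0% of unbound ones. How far uniqueness of mapping contributed to these differences was not tested; only uniquely mapped reads were kept in the lists.

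Standard SATB1 and CTCF peaks were rare at commonly bound BURs but more frequent there than at BURs in general. The commonly bound BURs were also longer (median 514 bp against 439 bp for all BURs). An overlap of 1 bp sufficed, and the part of length in these shares was not tested. Of the 6646 regions, 121 (1.82%) had a peak in standard SATB1 replicate 1, against 0.649% of all BURs, and 114 (1.72%) had one in replicate 2, against 0.521%. The mean was 1.77% ± 0.07 (SD, n = 2) in the regions and 0.585% ± 0.09 (SD, n = 2) in all BURs. For CTCF, 78 regions (1.17%) had a peak in the thymocyte list, against 0.221% of all BURs, and 104 (1.56%) had one in the skin list, against 0.522%. BURs of thymocytes and brain without skin had standard SATB1 peaks in 0.393% and 0.322%, below the 0.734% and 0.554% of unbound BURs, so the share did not climb evenly with the number of urea lists. In all, 6460 regions (97.2%) had no peak in any of these 4 lists.

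A set of 57 regions had a peak in all 11 lists, the BUR map included. Since they were picked for a peak in each of the 4 lists, leaving them out removes 57 peaks from each count by construction. Without them the shares were 0.971% and 0.865% for standard SATB1 1 and 2, against 0.625% and 0.497% of all other BURs. For CTCF they were 0.319% in thymocytes, against 0.197%, and 0.713% in skin, against 0.497%. The 57 regions were unlike the others in sequence and position. Their median AT content was 62.7%, 15.8% held TTAATAA, 24.6% lay within 2 kb of a transcription start site against 1.99% of all 6646, and 8 lay within 10 kb of an assembly gap, where 15 of all 6646 did. A 20-mer was shared with at least 10 other BURs in 61.4% of them. The part of repeated sequence or of unplaced copies in these peaks was not tested.

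**Figure D5:**
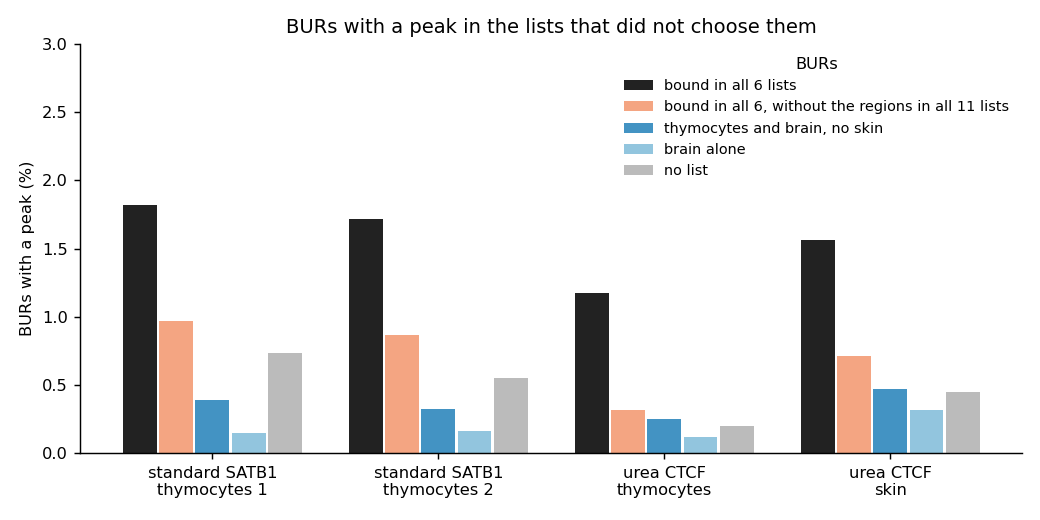
Share of BURs with a peak (vertical axis, percent) in the standard SATB1 lists of thymocytes and the urea CTCF lists of thymocytes and skin, for BURs bound in all 6 urea SATB1 lists, the same without the 57 regions found in all 11 lists, BURs bound in thymocytes and brain but not skin, in brain alone, and in no list. The black bars are 1.17% to 1.82% and the bars without the 57 regions, which were picked for having these peaks, are 0.319% to 0.971%.

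The 5 strongest regions without a standard SATB1 or CTCF peak had mean percentiles of 99.8 to 99.9 over the 6 lists. The first, on chromosome 9 (BUR at chr9:79230070-79230565), lay 336 kb from the nearest start site, that of the collagen gene Col12a1. Its fold enrichment was 32.0 and 34.6 in thymocytes 1 and 2, 27.2 and 27.4 in brain 1 and 2, and 35.6 and 34.6 in skin 1 and 2. The second (chr17:72984971-72985503) lay 32.2 kb from the start of Alk, a receptor tyrosine kinase gene, with 36.2 and 35.5 in thymocytes, 27.3 and 29.1 in brain and 32.3 and 32.6 in skin. The third (chrX:131111040-131111524) was in an intron of Btk, a kinase of B cell receptor signalling, with 34.1 and 34.0 in thymocytes, 29.4 and 29.6 in brain and 32.4 in both skin lists. All 3 were high in every list and differed little between replicates. The fourth (chr11:35330664-35331281) lay in an intron of Slit3, which encodes an axon guidance protein, and the fifth (chr4:99281915-99282432) 40.8 kb from the start of Foxd3, a transcription factor gene of the neural crest. The fourth had 31.8 and 33.3 in thymocytes, 27.3 and 29.0 in brain and 32.6 and 31.9 in skin.

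The 3 strongest of the 57 regions found in all 11 lists reached higher values in thymocytes, 38.2 to 40.5. They lay 35.5 kb from the start of Pak3 (chrX:139917310-139917894), in an intron of Chl1 (chr6:103598816-103599519) and, near the start of chromosome 12, 127 kb from the start of 1700012B15Rik (chr12:3109640-3110298). The first had the highest fold enrichment of all regions, 40.5 and 40.1 in thymocytes, 31.2 and 32.2 in brain and 42.5 and 41.9 in skin. None of the 3 held any of the 10 TAAT-type 7-mers, in contrast to the 6 to 9 in the 5 regions above.

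Commonly bound BURs were spread over all chromosomes and were mostly far from genes' start sites. Their share of the BURs of a chromosome ranged from 2.49% on chromosome 7 to 3.43% on chromosome 9, and was 2.95% on X. The median distance to the nearest start site of a protein-coding gene was 114 kb, against 166 kb for BURs of thymocytes and brain without skin, 183 kb for BURs of brain alone and 116 kb for unbound BURs. A region lay inside a gene in 37.2% of cases and inside an exon in 1.11%, against 33.9% and 1.20% of all BURs. Within 2 kb of a start site lay 1.99%, against 1.77% of all BURs. The median distance to the next commonly bound region was 110 kb. Another such region lay within 10 kb of 5.57% of them, and one lay within 10 kb of 6.36% of unbound BURs.

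Inside protein-coding genes, 1618 genes of 22350 (7.24%) contained a commonly bound BUR, or 16.1% of the 10063 genes with any BUR inside. The genes with most of them were very long. Lrp1b, a lipoprotein receptor gene of 2058 kb, held 13 among 447 BURs, Il1rapl1, which encodes a synaptic receptor-like protein, held 12 of 236, and Ptprd, a receptor tyrosine phosphatase gene, held 12 of 422. Gpc5 followed with 10 of 245, then Cdh18, Csmd3, Dmd and Mdga2 with 9 each and Cntnap2 and Erbb4 with 8 each. Their share of BURs that were commonly bound, 2.12% in Cntnap2 to 5.36% in Mdga2, stood around the 3.13% over all protein-coding genes, so the large numbers came with large numbers of BURs. Among 738 genes with at least 20 BURs, of which 222 contained none of the regions, high shares were 15.4% in Zfp536 (4 of 26), 13.6% in Serpini1 (3 of 22), and 13.0% each in Atpbd4 and Glra2 (3 of 23).

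In gene lists for the tissues, the share of BURs that were commonly bound is set beside the 3.13% over all protein-coding genes. Of 29 T cell genes found in the annotation, only Tox, a regulator of thymocyte development, contained a region (1 of 124 BURs, 0.806%). Of 30 epidermal genes, 2 did, Itga6 and Lama3, which encode parts of the hemidesmosomal adhesion system (2 of 49 BURs, 4.08%). Of 30 cortical neuron genes, 4 did, among them Gabra2, Gria2 and Syt1 (9 of 375 BURs, 2.40%). All 29 very long neuronal genes did (149 of 5494 BURs, 2.71%), and 1 of 30 housekeeping genes (1 of 13 BURs). Olfactory receptor genes had 6 regions among 162 BURs (3.70%) and vomeronasal receptor genes 10 among 614 (1.63%). Most of these counts rest on few regions, none of the lists was tested, and nothing is read from their distance to 3.13%. Median gene length ranged from 0.96 kb in the olfactory receptor genes to 1135 kb in the very long neuronal genes, and longer genes had more BURs.

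At 22 loci known for SATB1 or for the biology of the 3 tissues, 8 had a commonly bound BUR inside the gene or within 50 kb. The other 14, Cd4, Cd8a, Rag1, Rag2, Foxp3, Satb1, Bcl11b, Themis, Trp63, Krt5, Dsg3, Gabrg1, Grin2b and Arc, had none among the BURs there, which numbered 1 to 48 at a locus. At Satb1 itself there were 30 BURs, 8 of them bound in no list and none in all 6. With 2.86% of all BURs commonly bound, such numbers of BURs would often hold none, and nothing is read from the absence. Bdnf, a neurotrophin gene, had a region 28.1 kb from its start (chr2:109486500-109487036) with 30.5 and 29.8 in thymocytes, 26.1 and 24.6 in brain and 23.7 and 24.7 in skin. Csmd1, a long gene of the nervous system, contained 6 regions among 169 BURs within reach, the strongest (chr8:16122722-16123099) with 30.8 and 30.6 in thymocytes, 23.0 and 24.5 in brain and 23.4 and 25.1 in skin. Both were high in all tissues.
At Krt14, the basal keratin gene, a BUR 9.02 kb from the start (chr11:100077637-100078320) had its highest values in skin, 19.1 and 18.8, against 16.3 and 12.4 in thymocytes and 14.1 and 11.1 in brain. At Runx3, a transcription factor gene of CD8 T cells, a BUR 25.4 kb from the start (chr4:134650932-134651422) had 23.0 and 21.8 in thymocytes, 17.6 and 20.1 in brain and 12.8 and 10.8 in skin. At Tox, an intronic BUR (chr4:6780669-6781390) had 19.1 and 23.4 in thymocytes, 18.0 and 16.3 in brain and 9.01 and 7.98 in skin. At Gabra2, which encodes a GABA-A receptor subunit, an intronic BUR (chr5:71409680-71410173) had 15.6 and 16.2 in thymocytes, 17.1 and 14.2 in brain and 14.7 and 15.3 in skin. Since values are not scaled between samples, the order of tissues within a locus is not a measure of binding strength.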

How the data were processed

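In all, 11 peak lists of the series were used; knockout, input, Hi-C, 4C and a second CTCF sample were not used here. Per the submitters' processing notes and the study's methods, reads were aligned to NCBI37/mm9 with Bowtie2 2.3.1, keeping unique matches, and the authors called peaks list by list in MACS2 2.2.7, with a q-value cutoff of 0.01. The deposited fold enrichment is a ratio of peak height to the local background of its own sample. The deposited −log10 p and −log10 q values belong to a single list. The deposited display score was not used. The study calls the aligned reads of its urea libraries similar in total, but the lists hold no counts, so the depth behind each value is unknown and no interval for counting error is given.

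Overlaps of at least 1 bp were found with bedtools 2.31.1, and when several peaks met a BUR the highest fold enrichment was taken. A percentile is the rank of a peak among all peaks of its list. Sequences were read with pysam 0.24.0 from NCBIM37 in windows of 300 bp around BUR summits, and genes from GENCODE vM1; positions are 1-based. Symbols absent from that annotation were looked up among RefSeq synonyms. Values were computed with Python 3.11.15, numpy 2.4.6 and pandas 2.3.3, drawn with matplotlib 3.10.9, and the code was tested on simulated data.

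The members, gene lists and loci were chosen with earlier results of these data known. Replicates follow the labels. Everything is descriptive and no test was made. Named were the 5 strongest regions by mean percentile without standard SATB1 or CTCF peaks, the 3 strongest found in all 11 lists, the strongest within 50 kb of each listed locus, the 10 genes with most regions, and the 5 with the highest share among genes with at least 20 BURs. Alternatives were other overlap rules, a −log10 q of at least 5, urea lists of equal size, each list left out in turn, other windows and length classes. Values at some of the genes chosen by these rules are not reported here. The 7-mers, shared 20-mers and simple repeats were chosen after seeing the data.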

Additional observations from a re-analysis of the deposited data

How the results depend on the processing

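Of 113 recomputed alternatives, none changed the sign of a difference between sets, though the AT difference fell to 0 with urea lists of equal size. The number of regions and the plain shares have no sign, so they could not be called reversed. Leaving out 1 list gave 54 of the 113, and by construction it keeps all 6646 regions. In all, 85 moved by less than a tolerance. It was the SD over the 2 standard SATB1 lists for their share and 1.5 times for the number of regions. For the rest it was a 95% interval over regions, which are not replicates, so it grades size alone. No paired analysis was possible because no result comes from a test. The lists hold no counts, and a missing peak may be a site below detection. With urea lists of equal size (10846 peaks), 3414 BURs remained, the standard SATB1 share was 1.92%, the in vitro difference 6.40, the AT difference 0, the difference in stretches of 25 bp -1.11 points and the TTAATAA difference 36.2 points in place of 41.0. The standard SATB1 share was 1.33% with SATB1 summits inside BURs, 1.42% with an overlap of 50% of the shorter and 1.67% at −log10 q of at least 5. Under these overlap and q settings the share of all BURs was not recomputed, so the regions cannot be compared with BURs in general there. Without the 57 regions of all 11 lists the share was 0.918%, and CTCF was 0.319% in thymocytes and 0.713% in skin. Over whole BURs the AT difference was -2.58 and the stretch difference -0.93 points, the latter -21.2 points for stretches of 50 bp. In BURs of 400 to 500 bp the in vitro difference was 2.31, AT -2.33, stretches -4.90 and TTAATAA 39.0 points. Without simple repeats, chosen after seeing the data, these were 5.69, -1.67, -2.37 and 37.4. In protein-coding genes alone 34.9% lay inside, against 31.9% of all BURs. Leaving out each list in turn gave a standard share of 1.56% to 1.81% and an in vitro difference of 4.71 to 4.94. The causes were not tested.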
